A study of Caenorhabditis elegans with 9 samples.

Results

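Galectins are soluble lectins that bind β-galactoside sugars on glycoproteins and glycolipids through a conserved carbohydrate recognition domain. The *C. elegans* genome encodes a family of them, the *lec* genes. Some, such as LEC-1, carry a tandem repeat of the domain, and others, such as LEC-6, are small proteins with a single domain. LEC-6 is known to recognise galactose linked to the core fucose of worm N-glycans, and glycolipid-binding LEC-8 is known to affect sensitivity to a bacterial pore-forming toxin. The genes described here were the 10 galectin genes *lec-1* to *lec-6* and *lec-8* to *lec-11*, chosen by family and not by their level, out of 14218 genes with values. Earlier results of these data were known when these genes were chosen. All 10 had values, and all 10 passed the filter on low levels, which kept 11287 genes for testing. The more weakly expressed *lec-7* and the gene *lec-12* lie outside these 10 and are given apart.

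RNA was measured by poly(A) sequencing of whole animals at the L4 larval stage, in 3 groups of 3 independent replicates. The question was how loss or gain of the transcription factor ATF-4 changes gene expression in unstressed animals. WT animals were of strain N2. The *atf-4(tm4397)* mutants carry a deletion in *atf-4*, the worm gene for the ATF4-type bZIP factor of the integrated stress response. ATF-4OE animals carry the integrated transgene *ldIs119*, in which the *atf-4* promoter drives genomic *atf-4* fused to GFP. This transgene came from a single extrachromosomal line and was outcrossed to N2. It also carries the dominant marker *rol-6(su1006)*, a mutant cuticle collagen that makes worms roll, so extra ATF-4 and the marker cannot be told apart in ATF-4OE. Each sample held about 20000 animals grown at 20 °C on OP50 bacteria, and the 3 strains were raised side by side for each replicate. No group received a drug or stress.

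Levels are given in parts per 1000000 (ppm) of the summed, length-corrected values of a library, so that genes can be compared within a library. Library depth, estimated from the steps between low values, was 23.8 to 35.1 M reads. By these estimates the least read member, *lec-11*, had 217 to 743 reads per library and *lec-1* had 17189 to 32041. A gene "passed" where the adjusted p of limma, over all genes tested, was below 0.1. The level of *atf-4* fitted the genotype names used here: 168 to 215 ppm in WT, 3.69 to 9.31 ppm in the mutant and 4184 to 6845 ppm in ATF-4OE. The marker *rol-6* stood at 573 to 962 ppm in WT and 3019 to 4448 ppm in ATF-4OE. The deposited sheets name 6 of the 9 libraries differently. Under the other names, no galectin or glycan synthesis gene passed in ATF-4OE against WT, and no galectin gene passed against the mutant. This was not particular to these genes: of all 10378 genes tested under those names, 0 were called higher and 0 lower in each comparison.

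The 10 genes lie on 5 chromosomes of the WBcel235 assembly, and none of their annotated spans overlaps another of the 10. On chromosome II are *lec-1* (chrII:13195549-13199713), *lec-2* (chrII:10009608-10016183), *lec-3* (chrII:9991112-10000351) and *lec-5* (chrII:5839639-5841103). The spans of *lec-3* and *lec-2* are 9256 bases apart on opposite strands. On chromosome III are *lec-4* (chrIII:3771425-3773326) and *lec-6* (chrIII:599510-600366). On the X chromosome are *lec-8* (chrX:9850571-9851336) and *lec-9* (chrX:17600487-17601503), with *lec-7* starting 704 bases after the end of *lec-8* on the same strand. *lec-10* (chrV:6488203-6489120) and *lec-11* (chrIV:6588184-6590154) each stand alone on their chromosomes among the 10. By their longest annotated coding sequence the genes fall into a longer and a shorter set: 283 codons in *lec-4*, 285 in *lec-1*, 314 in *lec-5*, 337 in *lec-3* and 1245 in *lec-2*, against 140 in *lec-9*, 146 in *lec-6*, 180 in *lec-8*, 192 in *lec-10* and 232 in *lec-11*. *lec-2* has 4 annotated transcripts and *lec-3* has 9, and the values used here are per gene, so their isoforms were not separated.

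In WT the galectin genes spanned a wide range of levels. *lec-10* had the highest mean, 1135 ± 252 ppm (SD, n = 3), followed by *lec-1* at 858 ± 55.1 ppm, *lec-6* at 850.1 ± 195 ppm and *lec-9* at 642 ± 68.8 ppm. The ranges of neighbours among these top genes overlapped. Within each WT library, *lec-10* lay above *lec-1* and *lec-6* above *lec-9*, while the order of *lec-1* and *lec-6* was not the same in every library. *lec-9* lay above all remaining members in every WT library. Next came *lec-5* at 204 ± 23.3 ppm and *lec-8* at 195 ± 16.3 ppm, which overlapped each other, and then *lec-4* at 106 ± 18.9 ppm. *lec-2* (64.7 ± 5.42 ppm) and *lec-3* (50.4 ± 10.3 ppm) also overlapped, and *lec-11* was lowest at 23.7 ± 3.29 ppm, below every other member in every library. The mutant had the same order of means.

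In ATF-4OE the order was different at the top and in the middle. *lec-1* led, at 951 ± 34.2 ppm, and lay above all other members in each ATF-4OE library. *lec-10*, first in WT, came after *lec-1* and *lec-6* at 529 ± 79.6 ppm, and overlapped *lec-6* at 579 ± 132 ppm. *lec-4* at 317 ± 17.5 ppm had moved level with *lec-5* at 326 ± 13.4 ppm and stood above *lec-8* at 147 ± 13.5 ppm in every library, whereas in WT it lay below *lec-8* in every library. The plot of levels by library shows the members side by side.

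**Figure D1:**
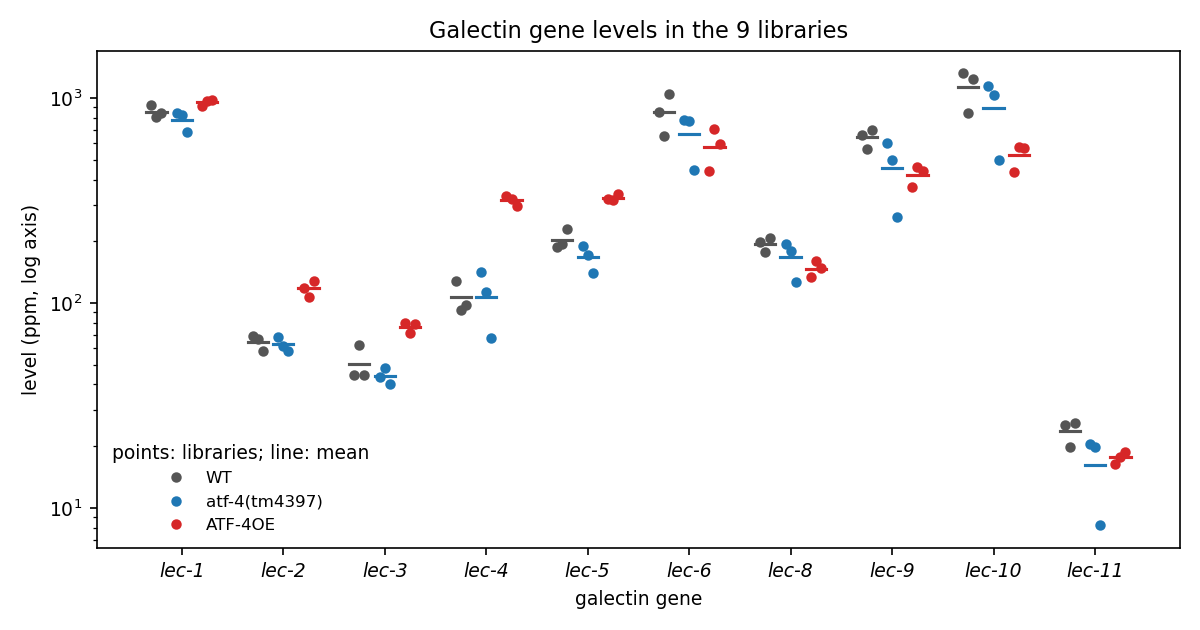
Level of each of the 10 galectin genes in the 9 libraries (ppm, log axis), coloured by genotype; points are single libraries and short lines are means of 3. The ATF-4OE points of *lec-2*, *lec-3*, *lec-4* and *lec-5* lie above all WT points, and those of *lec-8*, *lec-9*, *lec-10* and *lec-11* lie below them.

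Against WT, ATF-4OE had higher levels of *lec-2*, *lec-3*, *lec-4* and *lec-5* and lower levels of *lec-8* and *lec-10*. *lec-4* rose by the largest amount, 2.98-fold on mean levels, and *lec-10* was at 0.466 of its WT mean. Of the 10 members, 4 passed in the higher direction, where 22.1% of all genes tested did, and 2 in the lower direction, where 14.4% did. With a further limit of 1 on the log2 scale, 1 member counted as higher (*lec-4*; 6.02% of all genes) and 1 as lower (*lec-10*; 2.96% of all genes). All ATF-4OE libraries lay above all WT libraries for 4 members (25.1% of all genes) and below them for 4 members (23% of all genes). The median log2 difference of the 10 was -0.12, with 5 positive and 5 negative values, against 0.01 over all genes tested.

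*lec-4* stood at 128, 92.8 and 98.2 ppm in the WT libraries and at 331, 323 and 297 ppm in those of ATF-4OE. The groups were far apart, with the lowest ATF-4OE library above the highest WT library. The log2 difference was 1.58 (SE 0.24, adjusted p = 0.00235). *lec-2*, which has the longest coding sequence of the family, stood at 68.7, 66.9 and 58.6 ppm in WT and at 118, 107 and 128 ppm in ATF-4OE. Again every ATF-4OE library was higher than every WT library. The log2 difference of *lec-2* was 0.85 (SE 0.11, adjusted p = 0.00142).

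*lec-5* stood at 187, 194 and 230.2 ppm in WT and at 321, 316 and 342 ppm in ATF-4OE, a log2 difference of 0.68 (SE 0.13, adjusted p = 0.00553). Its levels in ATF-4OE were close together, and all lay above WT. *lec-3* gave the smallest of the 4 increases: it stood at 44.3, 62.3 and 44.6 ppm in WT and at 79.7, 71.0 and 78.8 ppm in ATF-4OE, with a log2 difference of 0.61 (SE 0.14, adjusted p = 0.0141). One WT library, replicate 2, was nearer to ATF-4OE than the others but did not reach it. These 4 increases passed in each of the 9 fits that left out 1 library, with adjusted p values of up to 0.0601 in *lec-3*.

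*lec-1*, the tandem-repeat galectin with the steadiest level of the abundant members, did not pass. It stood at 919, 812 and 843 ppm in WT and at 912, 966 and 976 ppm in ATF-4OE, and the groups overlapped. The log2 difference was 0.15 (95% interval -0.08 to 0.38, adjusted p = 0.305), so an increase of the size of those of *lec-2* to *lec-5* lies outside its interval.

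*lec-10* had the largest decrease. It stood at 1319, 847 and 1239 ppm in WT and at 437, 578 and 572 ppm in ATF-4OE. No ATF-4OE library reached the lowest WT library, replicate 2, and the log2 difference was -1.09 (SE 0.30, adjusted p = 0.0268). *lec-8*, the glycolipid-binding galectin, stood at 199, 177 and 208 ppm in WT and at 133, 160.1 and 148 ppm in ATF-4OE, a log2 difference of -0.40 (SE 0.16, adjusted p = 0.0929). These groups too did not overlap, but their gap was small.

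The calls of the decreases were less steady than those of the increases. Of the 9 fits that left out 1 library, *lec-10* passed in 8 and *lec-8* in 4. Without ATF-4OE replicate 1, neither *lec-10* (adjusted p = 0.107) nor *lec-8* (adjusted p = 0.261) passed, and the count of lower members went from 2 to 0. That fit called 1023 of all genes tested lower, against 1629 with all 9 libraries. *lec-8* also failed without WT replicate 1 (adjusted p = 0.195), WT replicate 3 (0.243), ATF-4OE replicate 3 (0.176) or *atf-4(tm4397)* replicate 2 (0.108). With libraries of the same replicate number paired in a block, *lec-10* passed (adjusted p = 0.052) and *lec-8* did not (adjusted p = 0.143), which left 1 lower member. Over all alternatives with the same library names, the adjusted p ranged from 0.0111 to 0.261 for *lec-8* and from 0.00236 to 0.107 for *lec-10*.

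The other small galectins had negative differences that did not pass. *lec-9* stood at 661, 566 and 699 ppm in WT and at 368, 460.0 and 440.1 ppm in ATF-4OE, without overlap (log2 difference -0.60, SE 0.26, adjusted p = 0.12). *lec-6*, the galectin that binds galactosylated core fucose, stood at 850.2, 655 and 1045 ppm in WT and at 440.4, 702 and 594 ppm in ATF-4OE (log2 difference -0.55, SE 0.26, adjusted p = 0.149). Here WT replicate 2 lay below ATF-4OE replicate 2. *lec-11* stood at 25.2, 19.9 and 25.9 ppm in WT and at 16.4, 17.8 and 18.7 ppm in ATF-4OE (log2 difference -0.40, SE 0.29, adjusted p = 0.341), a small gap at a low level.

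For these genes the call depended on the fit, and among the libraries on mutant replicate 3, which shares in the estimate of the spread. Without it, *lec-6* (adjusted p = 0.0691), *lec-9* (0.00881) and *lec-11* (0.0375) passed as well as *lec-8* (0.0218) and *lec-10* (0.00333), so that 5 members counted as lower in ATF-4OE and the same number, 4, as higher. A fit of the WT and ATF-4OE libraries alone also gave 5 lower and 4 higher. Of the 11287 genes tested, 2681 were called higher and 1792 lower without mutant replicate 3. The fit of the 2 groups alone called 2677 and 1981, and the fit of all 9 libraries 2493 and 1629. In other fits that left out 1 library, *lec-6* passed without WT replicate 2 (adjusted p = 0.0889) and *lec-9* without mutant replicate 1 (0.0743). With library weights, *lec-6* (adjusted p = 0.0237) and *lec-9* (0.0144) passed and *lec-11* did not. On the centred and scaled values only *lec-9* of these passed (adjusted p = 0.0767). Over all alternatives with the same library names the adjusted p ranged from 0.0237 to 0.409 for *lec-6*, from 0.00881 to 0.304 for *lec-9* and from 0.0375 to 0.552 for *lec-11*.

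**Figure D2:**
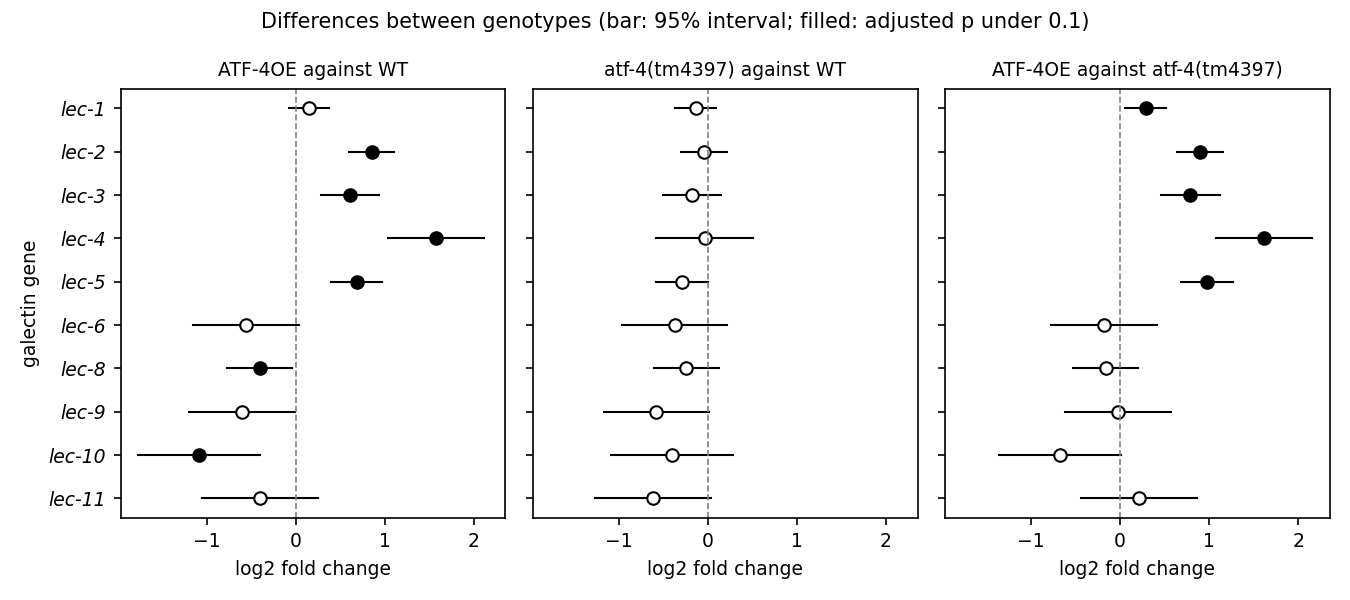
Log2 difference of each galectin gene in the 3 comparisons (x axis), with 95% intervals; filled circles have an adjusted p under 0.1. In ATF-4OE against WT the filled circles are *lec-2*, *lec-3*, *lec-4* and *lec-5* to the right of 0 and *lec-8* and *lec-10* to the left; no circle is filled for the mutant against WT.

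All members with a longest coding sequence of at least 283 codons had positive differences between ATF-4OE and WT, and all with at most 232 codons had negative ones. This split was seen after the values were known and was not tested. The other *lec* genes did not follow it: *lec-7*, with 179 codons, was higher in ATF-4OE, and *lec-12*, with 340 codons, was lower. *lec-12* stood at 59.9, 56.1 and 66.6 ppm in WT and at 39.0, 44.7 and 41.7 ppm in ATF-4OE, without overlap (log2 difference -0.53, SE 0.17, adjusted p = 0.0429). It failed without WT replicate 3 (adjusted p = 0.141), ATF-4OE replicate 1 (0.141) or ATF-4OE replicate 3 (0.102), and its adjusted p ranged from 0.0055 to 0.141 over the alternatives with the same names.

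*lec-7* was read 26 to 123 times per library, and it passed the filter of 5 ppm only through ATF-4OE replicate 1. It stood at 2.92, 2.99 and 2.26 ppm in WT and at 5.58, 4.84 and 3.85 ppm in ATF-4OE (log2 difference 0.63, SE 0.23, adjusted p = 0.0705). Because the filter kept it for its high value in ATF-4OE, this difference is a description. Its adjacent gene *lec-8*, on the same strand, differed in the opposite direction.

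**Figure D3:**
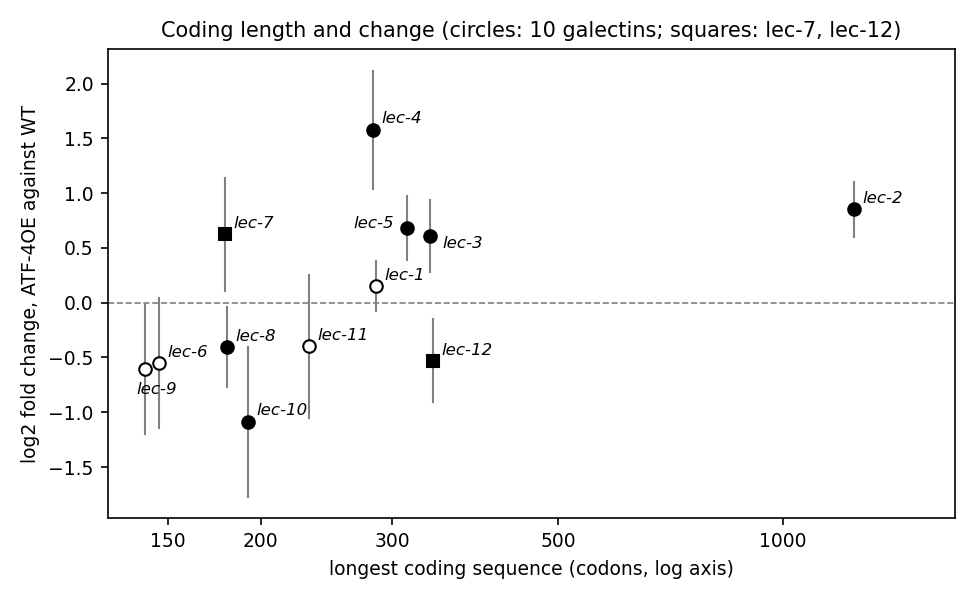
Log2 difference of ATF-4OE against WT (y axis, with 95% intervals) by the longest annotated coding sequence in codons (log axis), for the 10 galectin genes (circles) and *lec-7* and *lec-12* (squares); filled symbols have an adjusted p under 0.1. Among the circles the genes with 283 or more codons lie above 0 and those with 232 or fewer below it, while *lec-7* and *lec-12* lie on the other side. *lec-7* is filled, but it entered the test only through its level in ATF-4OE replicate 1.

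The summed level of the 10 genes was 4401, 3493 and 4491 ppm in WT, 4027, 3723 and 2329 ppm in the mutant and 3157, 3701 and 3593 ppm in ATF-4OE. The ranges of all 3 groups overlapped, and the mutant had the lowest mean, 3360 ± 905 ppm, with the widest spread. *lec-2* to *lec-5*, grouped after their values were seen, made up 10.4 ± 1.30% of it in WT (SD, n = 3) and 24.2 ± 2.50% in ATF-4OE. *lec-6* and *lec-8* to *lec-11* made up 68.6 ± 3.46% in WT and 48.4 ± 3.90% in ATF-4OE. The ratio of *lec-10* to *lec-4*, a value within each library that does not depend on its scaling, was 10.3, 9.13 and 12.6 in WT and 1.32, 1.79 and 1.92 in ATF-4OE. It was 8.16, 9.19 and 7.36 in the mutant, where replicate 2 overlapped WT. These shares and ratios follow from the choice of genes and were not tested.

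**Figure D4:**
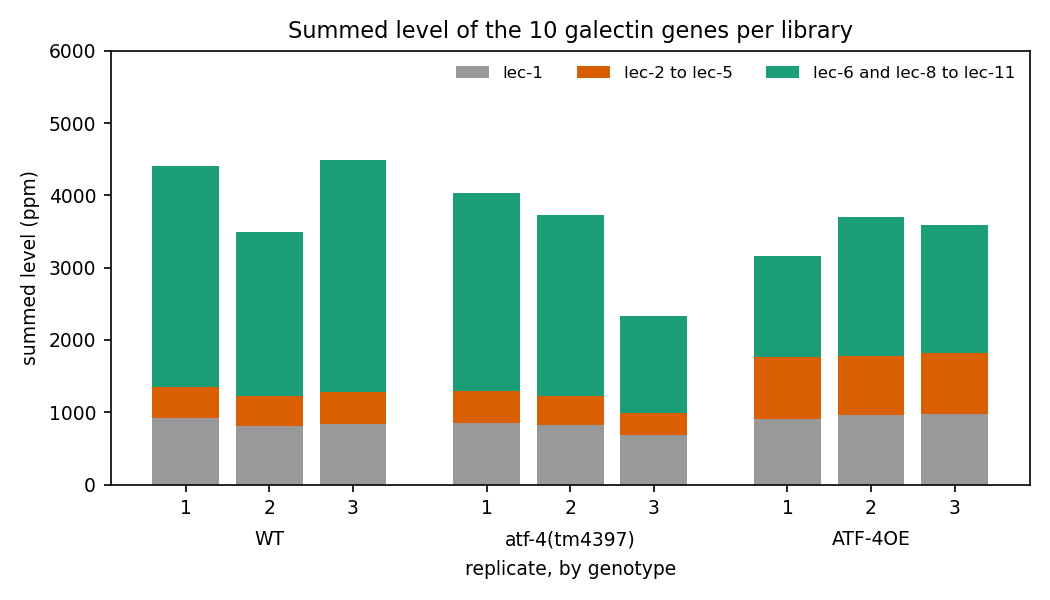
Summed level of the 10 galectin genes in each library (ppm, bars from 0), stacked as *lec-1*, *lec-2* to *lec-5*, and *lec-6* with *lec-8* to *lec-11*. The middle block takes 22.1 to 26.9% of the sum in ATF-4OE and 9.61 to 11.9% in WT, and the bar of mutant replicate 3 is the lowest of the 9.

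Loss of *atf-4* moved no galectin gene past the threshold. In *atf-4(tm4397)* against WT, limma called 0 of the 10 higher and 0 lower, where it called 0.0354% and 0.0177% of all genes tested, and 1 member, *lec-5*, had an unadjusted p below 0.05, as had 10.4% of all genes. No member had all mutant libraries above WT (6.07% of all genes) or all below it (7.98% of all genes). All 10 log2 differences were negative, with a median of -0.27 against 0.02 over all genes tested. They ranged from -0.04 in *lec-4* (95% interval -0.58 to 0.50) to -0.61 in *lec-11* (95% interval -1.26 to 0.04). For *lec-2* the interval was -0.30 to 0.21.

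The mutant libraries were uneven. *lec-10* stood at 1148, 1035 and 499 ppm, and *lec-9* at 600.1, 497 and 263 ppm. Replicate 3 was the lowest mutant library for all 10 members, by 0.80 below its group mean on the log2 scale in *lec-11*, 0.75 in *lec-10*, 0.70 in *lec-9* and 0.10 in *lec-2*. *lec-4* stood at 141, 112.6 and 67.8 ppm, with replicate 1 above and replicate 3 below every WT library. Without replicate 3 the log2 difference between the mutant and WT was 0.26 in *lec-4* and 0.007 in *lec-2*, and again no member passed.

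ATF-4OE was also set against the mutant, a comparison that shares the ATF-4OE libraries with the one above. *lec-2* (log2 difference 0.90, adjusted p = 0.00128), *lec-3* (0.79, adjusted p = 0.00563), *lec-4* (1.62, adjusted p = 0.00235) and *lec-5* (0.97, adjusted p = 0.00152) were higher in ATF-4OE, as was *lec-1* (0.29, adjusted p = 0.0713). These 5 members compare with 19.8% of all genes called higher. They were also the 5 whose libraries all lay above those of the mutant (22.4% of all genes). No member was called lower by limma, where 13.8% of all genes were, and none lay below in all libraries, where 16.8% did. The 5 called higher were the only members with an unadjusted p below 0.05, which 37.9% of all genes had.

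The call of *lec-1* was narrow. It stood at 846, 825 and 680 ppm in the mutant, below 912 ppm in the lowest ATF-4OE library. It failed when libraries of the same replicate number were paired (adjusted p = 0.109). It also failed without any 1 of ATF-4OE replicates 1 (0.123), 2 (0.147) or 3 (0.166) or mutant replicates 2 (0.107) or 3 (0.164). The range was 0.0469 to 0.166 over the alternatives with the same names. *lec-10* had a difference of -0.68 (95% interval -1.36 to 0.01, adjusted p = 0.135). Without mutant replicate 3, *lec-10* (adjusted p = 0.00899), *lec-8* (0.0708) and *lec-9* (0.0936) counted as lower in ATF-4OE, over ranges up to 0.343, 0.876 and 0.961. That fit called 1330 of the 11287 genes tested lower, against 1555 with all 9 libraries.

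The levels of *lec-2* to *lec-5* varied together over the 9 libraries, with Pearson r of log2 levels from 0.84 (*lec-3* and *lec-4*) to 0.95 (*lec-2* and *lec-4*). Those of *lec-6* and *lec-8* to *lec-11* did so too, from 0.73 (*lec-10* and *lec-11*) to 0.96 (*lec-8* and *lec-9*). Between these sets r ran from -0.64 to 0.27. The libraries fall into 3 genotypes that share their differences, so these are descriptions of the 9 libraries. The genes most like *lec-4*, the member with the largest change in ATF-4OE, were *ttr-15* (r = 0.995), *Y43C5A.3* (0.994), *C32D5.8* (0.994), *ttr-8* (0.990) and *T23F2.3* (0.989), all over 9 libraries. *ttr-15* and *ttr-8* belong to the large nematode family of transthyretin-related genes. *ttr-15* averaged 312 ± 79.1 ppm in WT, 313 ± 114 ppm in the mutant and 1431 ± 72.8 ppm in ATF-4OE, and *ttr-8* 24.3 ± 6.64, 26.7 ± 10.7 and 119 ± 17.6 ppm in the same order.

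Among genes that make the sugars galectins can bind, some were called higher and some lower in ATF-4OE. Of 22 genes of glycan synthesis, 20 had values and 18 were tested; *galt-1*, which adds galactose to core fucose, and *bre-5* were below the filter. In ATF-4OE against WT, 3 of the 18 passed as higher, where 22.1% of all genes tested did, and 6 as lower, where 14.4% did. The share called higher thus lay below that of all genes, and the share called lower above it. The list is short and was not tested as a set, so these shares are descriptions. The median log2 difference was -0.20. The 3 that rose were *gly-12*, an N-acetylglucosaminyltransferase I of N-glycan branching, *gly-20*, the enzyme of the following N-acetylglucosamine transfer, and *bre-3*, a mannosyltransferase of glycosphingolipid synthesis. *gly-12* stood at 12.6, 9.77 and 9.85 ppm in WT and at 21.6, 19.9 and 17.3 ppm in ATF-4OE (log2 difference 0.82, SE 0.13, adjusted p = 0.00264). The differences were 0.59 in *gly-20* (adjusted p = 0.0129) and 0.50 in *bre-3* (adjusted p = 0.00634).

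The 6 that fell included *bre-1*, which makes the precursor of GDP-fucose (log2 difference -0.41, adjusted p = 0.00978), and *fut-8*, which adds core α1,6-fucose (-0.42, adjusted p = 0.0227). *hex-2*, a Golgi hexosaminidase that trims N-glycans, stood at 79.7, 81.8 and 81.03 ppm in WT and at 55.5, 51.9 and 58.7 ppm in ATF-4OE (-0.54, SE 0.11, adjusted p = 0.00668). *bre-2*, another enzyme of glycosphingolipid synthesis, differed by -0.50 (adjusted p = 0.0485). The others were *fut-1*, a core fucosyltransferase (-0.43, adjusted p = 0.0645), and *ger-1*, a further enzyme of GDP-fucose synthesis (-0.51, adjusted p = 0.0826). None of the 18 passed in the mutant against WT in limma (0 higher and 0 lower), where 4 had an unadjusted p below 0.05 (10.4% of all genes did). All mutant libraries lay below WT for 7 of the 18, against 7.98% of all genes, and above it for 1, against 6.07%. The count of 6 lower genes in ATF-4OE was 3 without WT replicate 1, without WT replicate 3, without ATF-4OE replicate 1 or without ATF-4OE replicate 3. Over all genes tested, the number lower in these fits was 1205, 1018, 1023 and 1230, against 1629 with all 9 libraries.

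**Figure D5:**
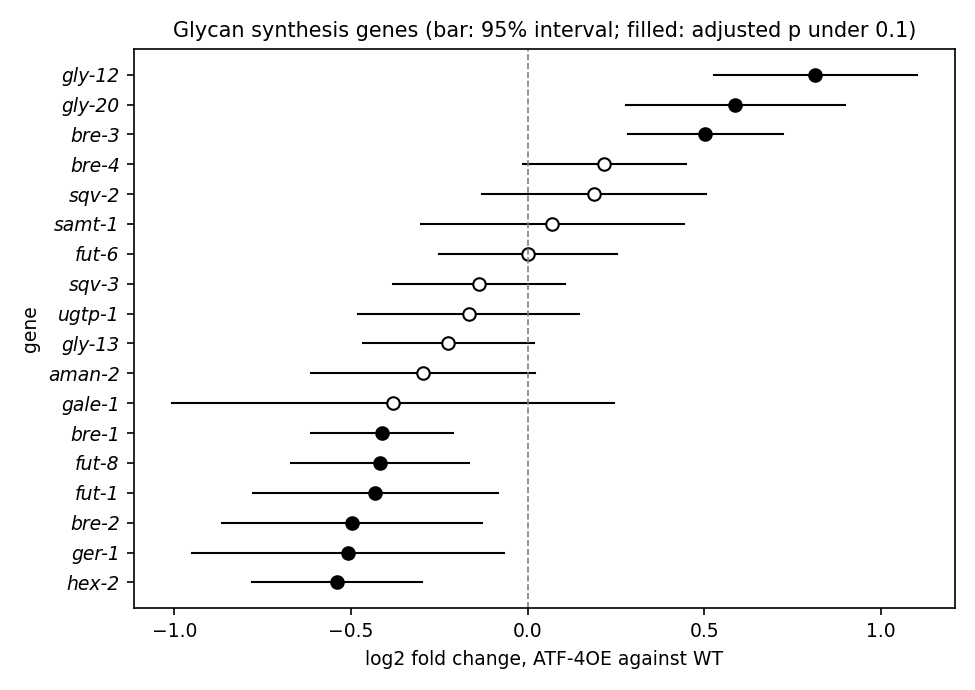
Log2 difference of ATF-4OE against WT for the 18 tested glycan synthesis genes (x axis), with 95% intervals and filled circles for an adjusted p under 0.1. The 3 filled circles above 0 are *gly-12*, *gly-20* and *bre-3*, and the 6 below 0 include *hex-2* and *fut-8*.

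Summed levels of intestinal and body wall muscle markers differed between ATF-4OE and WT without overlap, while those of moulting and spermatogenesis genes overlapped. In these whole-animal samples, fewer cells of a type and less RNA per cell cannot be told apart. The summed level of 13 intestinal marker genes was 4434 to 4943 ppm in WT, 3009 to 4394 ppm in the mutant and 2447 to 3337 ppm in ATF-4OE; 8 of the 13 passed as lower in ATF-4OE than in WT (14.4% of all genes) and none as higher (22.1% of all genes). Within the mutant it was lowest in replicate 3, the library with the lowest galectin levels. The sum of 15 body wall muscle genes was 7614 to 9035 ppm in WT, 8111 to 8395 ppm in the mutant and 10740 to 13060 ppm in ATF-4OE, with 11 of 15 higher and none lower in ATF-4OE, against the same shares of all genes. Moulting genes, 26 in number, summed to 2562 to 4255 ppm in WT, 4000 to 5348 ppm in the mutant and 3178 to 4398 ppm in ATF-4OE. The highest of the 9 sums was that of mutant replicate 3, the library with the lowest galectin sum. In ATF-4OE against WT, 8 of the 26 passed as higher and none as lower, again beside 22.1% and 14.4% of all genes. Spermatogenesis genes, 33 with values, ran from 5.80 to 499 ppm across libraries and overlapped between all groups. In ATF-4OE against WT, all 30 tested had negative log2 differences (median -0.87), and none passed. Their sum was lowest in WT replicate 2 (6.45 ppm), mutant replicate 3 (5.80 ppm) and ATF-4OE replicate 1 (5.85 ppm). In each group, *lec-6* and *lec-8* to *lec-11* were also lowest in that library. No marker was at 0 throughout a group. The part of these tissue differences in the galectin levels was not tested.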

How the data were processed

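Poly(A) RNA of 3 genotypes with 3 replicates each was sequenced in a single lane. Per the labels, the submitters' processing notes name STAR 2.4.0j, featureCounts and edgeR and the build WBcel235. The authors deposited RPKM for 46748 genes, and scores for 14218 genes, made by centring and scaling each library's RPKM. A sheet of scores for 39 most regulated genes served only to check names, and a sheet of enrichment p-values deposited by the authors was not used. Values in the RPKM and score sheets match library by library, but 6 of 9 libraries carry another genotype name. The score sheet's names were used, because the sheet of most regulated genes gives the same genotypes and the level of *atf-4* follows them. This was decided with the values in view. The sheet of most regulated genes exchanges the numbers of mutant replicates 2 and 3.

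Each library's lowest score was set to 0 and its sum to 1000000 (ppm). Genes that reached 5 ppm in 1 library or more entered a fit of log2(ppm + 1) over all 9 libraries with limma 3.58.1 (trend; R 4.3.3), checked on simulated data. Fold changes on this scale understate changes of low genes. Tests were two-sided, with Benjamini-Hochberg adjustment over 11287 genes. With 3 against 3 libraries an exact permutation test cannot go below 0.1 and was not used. Depth was estimated from RPKM steps and exon lengths of Ensembl 115: only 41.6 to 49.8% of values under 15 reads came out whole within 0.02 read, so no count model was used. Tables and figures were made with Python 3.11.15, pandas 2.3.3, numpy 2.4.6 and matplotlib 3.10.9.

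The labels say that the strains of a replicate were grown together. The score sheet's names do not say which sample a column is, so pairs by replicate number are uncertain. Deviations from the group mean correlated between same-numbered libraries by -0.68 to 0.31, and between differently numbered ones by -0.52 to 0.76. When numbered as in the sheet of 39 genes, the ranges were -0.48 to 0.76 and -0.68 to 0.62. The blocks are therefore given only as alternatives. The alternatives were pseudocounts, filters, scaling, the scores themselves, a fit of the compared groups alone, no trend, library weights, replicate blocks, RPKM under its own names, and leaving out each library. The text names all 10 members, *lec-7*, *lec-12*, up to 4 glycan synthesis genes per direction with the smallest adjusted p, and the 5 genes most correlated with the member that differed most; *fut-1*, *ger-1*, *galt-1* and *bre-5* fall outside this rule. Members and lists were chosen with earlier results of these data known. Whether the counting used strand is not given in the sources used here, so *lec* genes could share reads with antisense neighbours.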

Additional observations from a re-analysis of the deposited data

How the results depend on the processing

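With the same library names, the 4 members higher in ATF-4OE than in WT stayed 4 under every alternative. The number lower, 2, became 1 with no filter, with median-of-ratios scaling, with no trend, and with the replicate block under either numbering, 3 on the centred and scaled values, 4 with library weights and 5 with only the compared groups fitted. Over all genes tested, the 1629 lower became 1855 with median-of-ratios scaling and 862 on the centred and scaled values. They became 2319 with library weights and 1981 with only the compared groups. Leaving out 1 library gave 0 to 5 lower members, and 1018 to 1925 lower among all genes tested. In ATF-4OE against the mutant, the number lower, 0, became 1 with library weights and ranged from 0 to 3 leaving out 1 library. Among all genes tested, the 1555 lower there became 2371 with library weights and 765 to 2107 leaving out 1 library. The number of lower glycan synthesis genes, 6, became 2 on the centred and scaled values and ranged from 3 to 7 leaving out 1 library. Paired by replicate under the score sheet's numbers, *lec-8* against WT and *lec-1* against the mutant lost their calls; under the other numbering only *lec-8* did (adjusted p = 0.107). The block changed no other call of a *lec* gene.

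Under the RPKM sheet's own names, no galectin or glycan synthesis gene passed in ATF-4OE against WT (0 higher, 0 lower). No galectin passed against the mutant (0 higher). Nor did any other gene: of all 10378 genes tested under these names, 0 were called higher and 0 lower in each comparison. The signs then turned against WT in *lec-1* (-0.06), *lec-2* (-0.13), *lec-4* (-0.32), *lec-6* (0.20), *lec-10* (0.009), *lec-11* (0.022) and *lec-12* (0.038), in the mutant against WT in *lec-3* (0.062), and in ATF-4OE against the mutant in *lec-3* (-0.051), *lec-6* (0.38), *lec-8* (0.18), *lec-9* (0.36), *lec-10* (0.50) and *lec-12* (0.22). On the centred and scaled values the signs turned in *lec-7* for the mutant against WT (0.017) and in *lec-11* (-0.008) and *lec-7* (-0.007) for ATF-4OE against the mutant. The cause was not tested.

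Leaving out 1 library turned a sign in *lec-2* (range -0.11 to 0.007) and *lec-4* (-0.27 to 0.26) for the mutant against WT, and in *lec-6* (-0.45 to 0.003), *lec-9* (-0.38 to 0.22) and *lec-11* (-0.18 to 0.43) for ATF-4OE against the mutant. Depth limits *lec-7* and *lec-11* most.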
